A study of Homo sapiens with 18 samples.

Results

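RCC4 is a renal carcinoma cell line that lacks working VHL, and the cells described here were RCC4 cells into which wild-type VHL had been stably transfected. They were kept either in normoxia (3 samples) or, by the labels, in 1.0% oxygen for 24 h (3 samples), so that both groups carried the same transfected VHL and differed, by the labels, in oxygen. These 6 samples of 18 in the series were chosen by their labels, and the unit of every comparison was the sample. The labels and the study's methods differ on the exposure, since the methods give a lower oxygen level and a shorter time for the hypoxic cells used in RNA-seq, and the titles of all 6 samples mark them as replacements without saying of what. Whether the transfected cells were 1 clone or a pool is not given in the sources used here, and parental RCC4 cells without VHL were not compared here.

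VHL is the part of a ubiquitin ligase that recognises the alpha subunits of the hypoxia-inducible factors (HIF) once oxygen-dependent prolyl hydroxylases have marked them. When oxygen is low the alpha subunits escape this mark, pair with ARNT (HIF-1β) and bind DNA at the core motif ACGTG or GCGTG. HIF is known for inducing glucose uptake, glycolysis, angiogenic factors and its own negative regulators, and in clear cell renal carcinoma the loss of VHL leaves it active at any oxygen level. Cells with VHL put back depend on oxygen for this control again, and the comparison of hypoxia with normoxia addresses which genes then follow oxygen.

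PolyA+ RNA was sequenced and the authors counted reads per gene, with 42045335 to 49594033 counts per normoxic sample and 50103970 to 51794355 per hypoxic sample. A gene with no read in a sample could have been present at up to 3 counts, or 0.0579 to 0.0714 CPM (counts scaled to the size of the library), with counting error only. Of 23106 genes in the files, 12811 had enough reads to be tested. Replicates of 1 group differed by 4.57 to 7.3 times the variance that counting error gives, so none looked like a library deposited more than once. Nothing in the labels says that they came from separate cultures, so that p-values measure the spread between these samples. All 8 markers of renal carcinoma and tubule epithelium were at 1 CPM or more, with a summed level of 4970.0 to 5090.0 CPM in normoxia and 5810.0 to 5990.0 CPM in hypoxia, whereas none of 4 endothelial, 4 leukocyte and 4 fibroblast markers reached 1 CPM, and PECAM1, CDH5, PTPRC, CD3E and COL3A1 were at 0. Of 5 hepatocyte markers 1 reached 1 CPM, and ALB, APOA1 and TTR were at 0. VHL itself was at 63.7, 63.7 and 66.0 CPM in normoxia and 65.2, 66.9 and 61.6 CPM in hypoxia, with a log2 fold change of 0.00 ± 0.044 (edgeR, adjusted p = 0.972), and its groups overlapped. Reads on VHL do not separate the transfected from the resident gene.

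Hypoxia moved many genes by small amounts and few by large ones. Of the 12811 genes, 3318 (25.9%) were induced and 3105 (24.2%) repressed in edgeR's quasi-likelihood test with Benjamini-Hochberg adjustment. At least 2-fold changes were found for 265 induced (2.07%) and 130 repressed genes (1.01%). When the test asked for a change beyond 1.2-fold, 1160 induced (9.05%) and 562 repressed genes (4.39%) passed. In 3695 genes (28.8%) every hypoxic sample lay above every normoxic one, and in 3535 (27.6%) every hypoxic sample lay below. The balance between both directions depended on scaling, with TMM factors of 1.02 to 1.03 in normoxia and 0.971 to 0.973 in hypoxia. With counts scaled by the total alone, 2289 genes were induced and 4651 repressed, so that induced genes made up 33.0% of the called genes in place of 51.7%, and 835 were induced and 1060 repressed beyond 1.2-fold, 44.1% in place of 67.4%. That scaling lowered the median log2 fold change of all tested genes from -0.0018 to -0.0845. In bulk RNA a lower level per cell cannot be told apart from fewer cells with a high level.

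**Figure D1:**
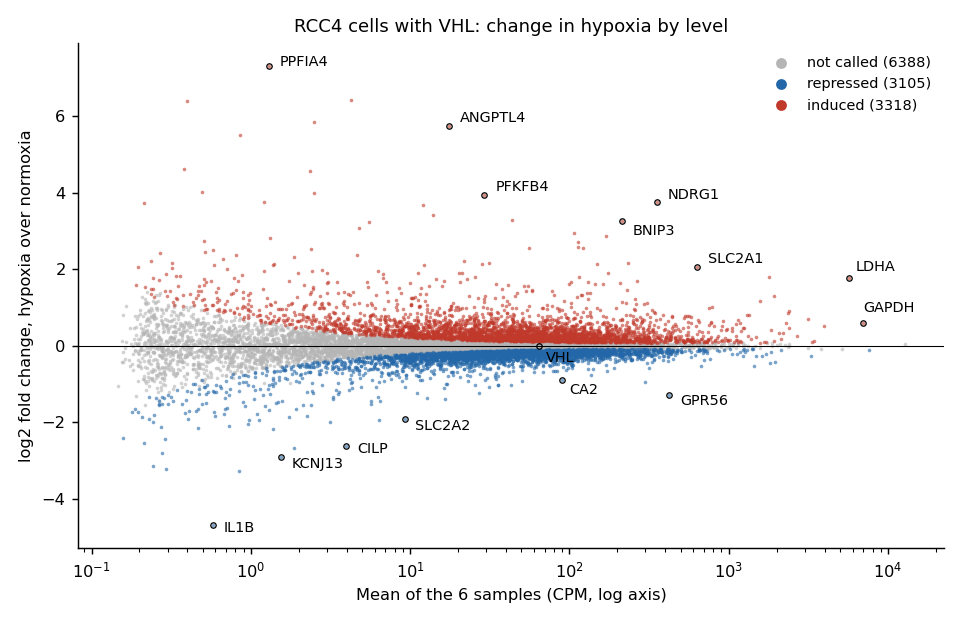
Log2 fold change (hypoxia over normoxia) of each tested gene against its mean over the 6 samples (CPM, log axis), with induced genes in red, repressed genes in blue and genes not called in grey. Large increases reach from PPFIA4 at low counts to LDHA at a mean of a mean CPM among the highest of all genes, large decreases are mostly of genes with few reads, and VHL lies at 0.

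Small changes were the rule. Among induced genes the median log2 fold change was 0.31 (quartiles 0.20 and 0.52), and 1339 of 3318 (40.4%) changed by less than 1.2-fold. Among repressed genes the median was -0.25 (quartiles -0.37 and -0.18), and 1665 of 3105 (53.6%) changed by less than 1.2-fold. Changes of 4-fold or more were called for 50 induced and 18 repressed genes. The repressed genes with large changes had few reads: the median of their mean level was 0.523 CPM for changes of 4-fold or more and 51.9 CPM for changes of 1.1 to 1.2-fold. The corresponding medians of induced genes were 2.5 and 56.8 CPM.

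The genes with the smallest p-values among changes under 1.2-fold show what the most clearly measured of these changes looked like. RPN2, a subunit of the oligosaccharyltransferase that glycosylates proteins in the endoplasmic reticulum, was at 440.5, 438 and 436 CPM in normoxia and 528, 515 and 528 CPM in hypoxia (1.195-fold, adjusted p = 2.9e-07). ITM2B, a membrane protein, rose from 1213, 1186 and 1233 to 1428, 1404 and 1466 CPM (1.18-fold), and ANXA2, a membrane-binding annexin, rose 1.19-fold. ALDH1A1, an aldehyde dehydrogenase that makes retinoic acid, fell from 1774, 1733 and 1815 to 1481, 1450.0 and 1516 CPM (1.197-fold lower, adjusted p = 1.97e-07), and PSMC2, an ATPase of the proteasome cap, fell from 225, 225 and 228 to 187, 192 and 189 CPM (1.19-fold lower). MRPL37, ITGB3, PPP2R4, FSTL1 and KHDRBS1 changed by similar amounts (log2 fold changes of -0.26, -0.26, -0.26, 0.24 and 0.25, largest adjusted p = 9.08e-07, edgeR). In each of these 10 genes the replicates lay close together and the groups did not overlap, which their choice by smallest p largely fixes. None passed the test against 1.2-fold, which a change estimated under 1.2-fold cannot pass.

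Gene length and base composition moved with these small changes. Of the quintile of genes with the shortest transcripts 13.4% were induced and 36% repressed, and of the quintile with the longest 45.6% were induced and 13.2% repressed. The quintile lowest in GC held 38.7% induced and 13.1% repressed genes, and the quintile highest in GC held 14.9% induced and 36% repressed genes. The median log2 fold change went from -0.10 in the shortest to 0.13 in the longest quintile, and from 0.09 in the lowest to -0.10 in the highest GC quintile. An offset for length and GC together, chosen after seeing the data, brought these medians to between -0.02 and 0.02 and left 3171 induced and 3070 repressed genes. What part length or GC has in any of the small changes was not tested. List counts with the offset are given beside most lists where they moved by over 1.5 times and beside some lists of mostly small changes. Counts of called genes in each list are to be read beside the shares over all tested genes, 25.9% induced and 24.2% repressed.

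**Figure D2:**
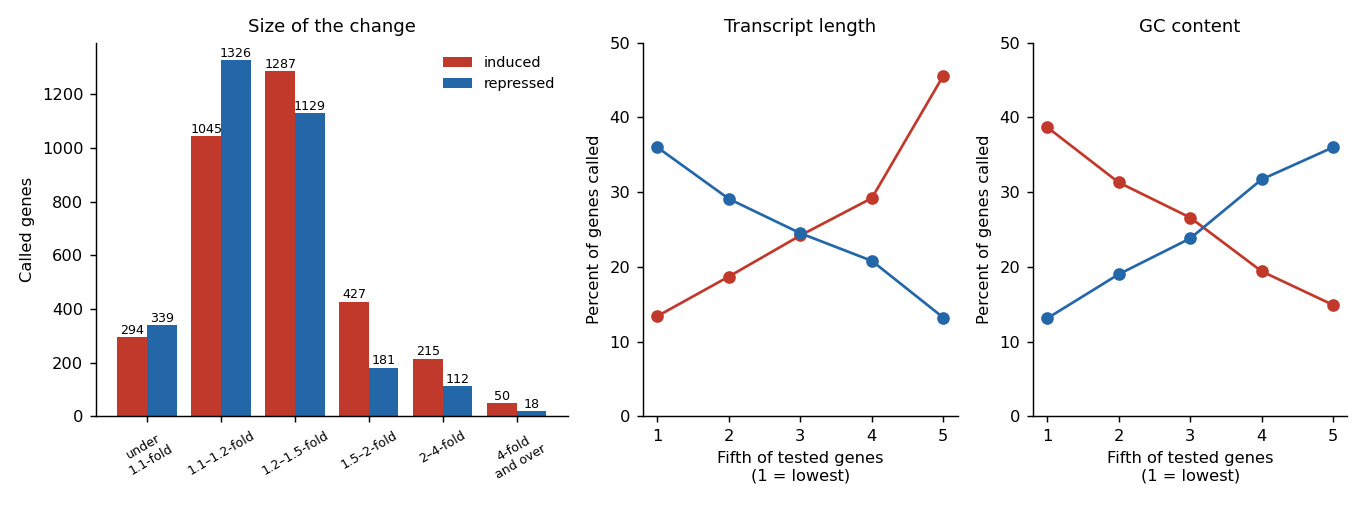
Number of called genes by size of the change (left) and percent of tested genes called in each quintile of transcript length (middle) and of GC content (right), with induced genes in red and repressed genes in blue. Repressed genes are most frequent at 1.1 to 1.2-fold (1326 genes), induced genes at 1.2 to 1.5-fold (1287 genes), and the shares of both directions cross over from the shortest to the longest transcripts and from low to high GC.

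The 12 genes with the highest fold changes, among called genes with a mean of at least 1 CPM and groups that did not overlap, held several secreted regulators of vessels and metabolism. ANGPTL4, a secreted inhibitor of lipoprotein lipase, was at 0.799, 0.314 and 0.836 CPM in normoxia and 29.7, 37.4 and 35.8 CPM in hypoxia, a log2 fold change of 5.74 ± 0.15. APLN, the vasoactive peptide apelin, was at 0.390, 0.216 and 0.279 CPM in normoxia and 4.38, 4.75 and 5.03 CPM in hypoxia (3.99 ± 0.22). Both were under 1 CPM in every normoxic sample and well above it in every hypoxic one. EDN1, which encodes the vasoconstrictor endothelin-1, rose from 1.54, 2.16 and 1.49 to 21.9, 23.2 and 21.6 CPM (12.76-fold), and ADM, the vasodilator adrenomedullin, rose from 7.86, 8.09 and 8.27 to 77.6, 82.1 and 76.3 CPM (9.76-fold).

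NDRG1, a stress-induced cytoplasmic protein widely used as a marker of hypoxia, had the smallest p of these 12 genes. It was at 47.8, 50.4 and 48.9 CPM in normoxia and 655, 652 and 659.8 CPM in hypoxia, 13.4-fold higher (adjusted p = 2.16e-27). SPAG4, a protein of the nuclear envelope, rose 10.6-fold. PFKFB4, AMPD3 (AMP deaminase), and CYP26B1, which degrades retinoic acid, rose 15.4-fold, 13.5-fold and 23.8-fold in the fit (largest adjusted p of these 5 genes = 8.78e-10, edgeR).

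At the very top, genes were almost without reads in normoxia. PPFIA4, a liprin that scaffolds synaptic and adhesion proteins, had 0, 2 and 0 counts in normoxia and 121, 129 and 133 counts in hypoxia, a ratio of summed counts of 178 (95% exact interval 48.9 to 1470.0). LOC100506134, an uncharacterised locus, had 8, 5 and 1 counts in normoxia and 433, 389 and 425 counts in hypoxia, a ratio of 82.7 (95% exact interval 49.1 to 152). FAM115C had 7, 1 and 4 counts in normoxia and 267, 263 and 196 counts in hypoxia, a ratio of 56.1 (95% exact interval 31.9 to 109). These intervals cover counting error only, and FAM115C has a close relative in the genome with which unique reads can be lost.

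**Figure D3:**
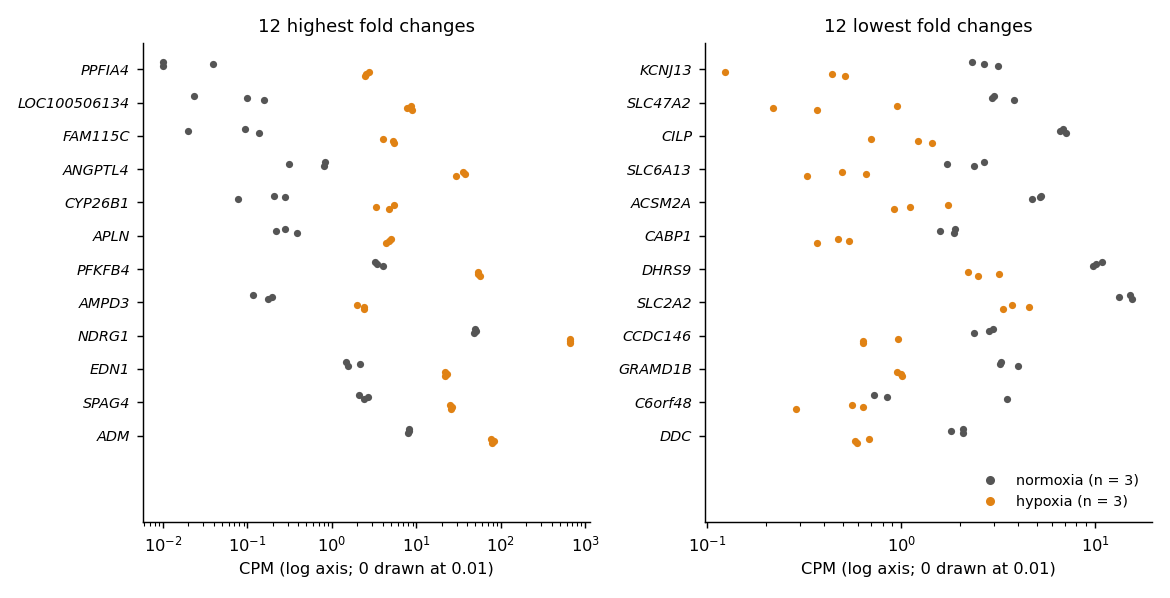
CPM of the 12 genes with the highest (left) and the 12 with the lowest (right) fold changes, one point per sample on a log axis, with normoxia in grey and hypoxia in orange. The groups do not overlap for any of the 24 genes, which the choice of genes fixes, and C6orf48 has 1 normoxic sample at 3.49 CPM and 2 below 1 CPM.

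Glucose uptake and glycolysis rose almost as a whole. Of 23 genes tested, 20 were induced (against 25.9% of all tested genes), 9 of them at least 2-fold, 2 were repressed, and the median log2 fold change was 0.79. The counts of induced genes were the same with total-count scaling and with the offsets for GC and length. The number repressed was 3 with total-count scaling and 1 with an offset for length or for GC and length. With all 18 samples in 1 fit it was 0. Uptake begins with SLC2A1, the main glucose transporter GLUT1 (chr1:43391024-43424564 in GRCh37), which was at 241, 252 and 246 CPM in normoxia and 1033, 1045 and 999.7 CPM in hypoxia (2.06 ± 0.033). Its relative SLC2A3 (GLUT3) had 0, 1 and 0 counts in normoxia and 56, 32 and 29 counts in hypoxia, a ratio of 109 (95% exact interval 19.1 to 4320.0). Phosphorylation of glucose by hexokinases followed the same direction, with HK2 at 56.0, 55.7 and 54.3 CPM in normoxia and 239, 252 and 235 CPM in hypoxia (2.13 ± 0.039) and HK1 at a log2 fold change of 1.33 ± 0.037.

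The step that commits sugar to glycolysis differed among its isoforms. Of the phosphofructokinases, PFKP and PFKL rose (0.77 ± 0.033 and 0.58 ± 0.037), whereas PFKM, the muscle isoform, fell from 82.3, 82.6 and 86.5 to 72.4, 74.3 and 74.7 CPM (-0.18 ± 0.041, adjusted p = 0.000665). The bifunctional enzymes that make their activator fructose 2,6-bisphosphate both rose, PFKFB4 from 4.04, 3.38 and 3.23 to 57.0, 54.4 and 53.5 CPM (3.95 ± 0.075) and PFKFB3 from 222, 217 and 213 to 355, 338 and 357 CPM (0.69 ± 0.034). Both aldolases and both enolases measured rose. ALDOC changed by 2.21 and ALDOA by 0.91 on the log2 scale, and ENO2 by 2.56 and ENO1 by 0.69.

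Lower glycolysis and lactate production held the 3 largest gains in reads. PGK1, which makes the first ATP of the pathway, was at 781, 795 and 816 CPM in normoxia and 2730.0, 2872 and 2750.0 CPM in hypoxia (1.804 ± 0.031), and GAPDH, upstream of it, was at 5508, 5692 and 5512 CPM in normoxia and 8411, 8625 and 8277 CPM in hypoxia (0.60 ± 0.028). LDHA, which turns pyruvate into lactate, was at 2557, 2527 and 2625 CPM in normoxia and 8643, 8806 and 8845 CPM in hypoxia (1.77 ± 0.028, adjusted p = 2.41e-23), while LDHB, the subunit that favours the reverse reaction, fell from 1315, 1327 and 1380.0 to 1241, 1257 and 1242 CPM (-0.10 ± 0.030, adjusted p = 0.00557). The lactate exporter SLC16A3 (MCT4) rose from 95.1, 102 and 102 to 200.1, 199 and 194 CPM (0.99 ± 0.038), and SLC16A1 (MCT1) was at 296, 290.0 and 284 CPM in normoxia and 286, 293 and 285 CPM in hypoxia (-0.01 ± 0.033, adjusted p = 0.808). The p-values are from edgeR, and all 20 induced genes passed the test against 1.2-fold as well. GAPDH, LDHA and several others have many processed pseudogenes, and the authors removed reads without a unique place.

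The core motif of HIF was looked for in promoters of this pathway. The promoters below are those of 3 glycolytic genes that rose, of PFKFB4 as the glycolytic gene with the largest well-counted change, of PFKM as the isoform that fell, and of SLC2A2, a glucose transporter that fell. They run from 250 bases before to 50 bases after the gene start, 5′ to 3′ on the coding strand, are from RefSeq on GRCh38.p14, and show in capitals each ACGTG or GCGTG on either strand (CACGT and CACGC on the strand printed).
PGK1 (chrX:78103998-78104297, plus strand): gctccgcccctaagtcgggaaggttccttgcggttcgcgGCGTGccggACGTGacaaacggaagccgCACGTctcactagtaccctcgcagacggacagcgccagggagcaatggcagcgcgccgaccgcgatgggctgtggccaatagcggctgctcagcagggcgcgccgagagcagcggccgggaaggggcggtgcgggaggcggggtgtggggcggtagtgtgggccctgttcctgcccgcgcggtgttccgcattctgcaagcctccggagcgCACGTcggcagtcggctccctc
LDHA (chr11:18394313-18394612, plus strand): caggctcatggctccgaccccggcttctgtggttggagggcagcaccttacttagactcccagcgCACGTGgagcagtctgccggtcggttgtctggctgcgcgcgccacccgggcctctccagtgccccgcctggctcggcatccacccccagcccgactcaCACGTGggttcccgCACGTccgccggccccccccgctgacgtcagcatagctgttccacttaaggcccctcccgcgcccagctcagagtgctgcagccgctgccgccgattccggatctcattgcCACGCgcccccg
ENO1 (chr1:8878637-8878936, minus strand): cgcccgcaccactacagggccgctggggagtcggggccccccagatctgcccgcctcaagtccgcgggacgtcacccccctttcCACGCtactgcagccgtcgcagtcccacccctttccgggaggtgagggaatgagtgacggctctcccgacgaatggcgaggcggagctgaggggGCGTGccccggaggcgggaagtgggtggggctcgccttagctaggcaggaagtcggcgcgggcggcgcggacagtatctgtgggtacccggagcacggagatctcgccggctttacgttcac
PFKFB4 (chr3:48556754-48557053, minus strand): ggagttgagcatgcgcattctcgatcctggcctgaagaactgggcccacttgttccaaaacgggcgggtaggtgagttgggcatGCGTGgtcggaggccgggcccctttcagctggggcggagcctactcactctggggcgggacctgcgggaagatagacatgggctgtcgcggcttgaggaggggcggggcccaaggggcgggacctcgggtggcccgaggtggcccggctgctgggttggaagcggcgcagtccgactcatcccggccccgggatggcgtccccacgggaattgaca
PFKM (chr12:48105623-48105922, plus strand): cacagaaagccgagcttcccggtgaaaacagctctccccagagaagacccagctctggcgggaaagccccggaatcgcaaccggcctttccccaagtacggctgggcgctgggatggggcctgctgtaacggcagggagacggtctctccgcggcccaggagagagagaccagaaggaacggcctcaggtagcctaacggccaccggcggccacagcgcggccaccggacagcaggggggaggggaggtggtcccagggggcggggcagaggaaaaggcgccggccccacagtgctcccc
SLC2A2 (chr3:171026671-171026970, minus strand): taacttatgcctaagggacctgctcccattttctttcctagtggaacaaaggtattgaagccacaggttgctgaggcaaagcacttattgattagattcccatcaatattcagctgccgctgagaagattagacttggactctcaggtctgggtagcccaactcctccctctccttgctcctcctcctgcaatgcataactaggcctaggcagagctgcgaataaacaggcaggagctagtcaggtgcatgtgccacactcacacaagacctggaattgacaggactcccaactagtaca
The PGK1 promoter held ACGTG 3 times and GCGTG 1 time, and that of LDHA held ACGTG 5 times and GCGTG 1 time, where each CACGTG counts on both strands. The ENO1 promoter held GCGTG 2 times, that of PFKFB4 held it 1 time, and neither motif was in the windows of PFKM and SLC2A2. The window of LDHB (not printed), the other glycolysis gene that fell, held GCGTG 1 time. Of the 21 glycolysis genes with a promoter in the table, 8 held ACGTG, 11 held GCGTG and 6 held neither, among them HK1, PFKP, TPI1, PGAM1 and SLC16A3, which rose. For comparison, 21.6% of all 27305 promoters of the table held ACGTG and 36.3% held GCGTG, and of the promoters of tested genes 26.7% and 50.9%. Fewer than 80% of the tested genes (10103 of 12811) had a promoter there. Of the induced genes with a promoter (2686 of 3318), 26.9% held ACGTG and 48.4% GCGTG. Of the repressed genes with a promoter (2525 of 3105), 27.4% held ACGTG and 51.2% GCGTG. Whether the motif goes with the direction of change was not tested.

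In the HIF pathway itself EGLN1 had the largest change. EGLN1 (PHD2), the prolyl hydroxylase that marks HIF for VHL, was at 180.0, 171 and 175 CPM in normoxia and 300.1, 313 and 300.5 CPM in hypoxia (0.80 ± 0.035, adjusted p = 5.81e-15), so that every hypoxic sample was well above the normoxic ones. EGLN2 (PHD1) fell from 69.5, 66.8 and 65.3 to 59.7, 58.8 and 58.8 CPM (-0.19 ± 0.043). EGLN3 (PHD3) had 1, 1 and 0 counts in normoxia and 3, 5 and 7 counts in hypoxia, below the count filter (adjusted p = 0.0741 with no filter, edgeR). Of the alpha subunits, HIF1A fell from 365, 364 and 356 to 311, 312 and 315 CPM (-0.21 ± 0.032, adjusted p = 7.08e-06) and EPAS1 (HIF-2α) rose from 248, 251 and 240.0 to 310.5, 287 and 291 CPM (0.26 ± 0.036, adjusted p = 2.01e-06), and neither passed the test against 1.2-fold. ARNT was at 44.5, 42.2 and 46.4 CPM in normoxia and 44.1, 44.1 and 44.05 CPM in hypoxia (-0.01 ± 0.049, adjusted p = 0.905, edgeR) and its groups overlapped. Over the list of 13 tested subunits, sensors and VHL complex members, 3 were induced and 3 repressed, and the median was -0.0024. Both shares were near those of all tested genes (25.9% and 24.2%). The number repressed was 5 with total-count scaling and with the offset for GC and length.

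The cell-surface carbonic anhydrases known as strong HIF targets were nearly silent. CA9 had 0, 0 and 0 counts in normoxia and 6, 4 and 3 counts in hypoxia and CA12 had 0, 1 and 0 counts in normoxia and 3, 1 and 18 counts in hypoxia, both below the count filter of the main test, and 18 of the 22 hypoxic counts of CA12 came from 1 sample. In the fit with no filter on low counts both were called induced (adjusted p = 0.013 for CA9 and 0.00593 for CA12, edgeR). Of the 7 tested genes of acid and bicarbonate handling none were induced and 3 were repressed. CA2, the cytosolic carbonic anhydrase, fell from 115, 114 and 123 to 63.5, 61.7 and 64.9 CPM (-0.89 ± 0.042), and the bicarbonate carriers SLC4A4 and SLC4A2 changed by -0.35 and -0.30 on the log2 scale (largest adjusted p = 2.76e-07, edgeR).

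At the entry of pyruvate into mitochondria, 2 of the 4 kinases that switch pyruvate dehydrogenase off rose and both phosphatases that switch it on fell. PDK1 was at 33.7, 30.3 and 34.1 CPM in normoxia and 190.1, 212 and 181 CPM in hypoxia (2.57 ± 0.055), and PDK3, with few reads, rose from 0.195, 0.589 and 0.279 to 1.31, 1.31 and 1.05 CPM (1.77 ± 0.36). PDK2 and PDK4 were at 0.78 and -0.39 and not called (adjusted p = 0.152 and 0.318, edgeR). The phosphatases PDP1 and PDP2 fell from 132, 124 and 128 to 92.7, 96.9 and 99.8 CPM (-0.41 ± 0.040) and from 21.5, 22.8 and 22.8 to 19.1, 18.1 and 20.3 CPM (-0.22 ± 0.064; largest adjusted p of the 4 genes = 0.00615, edgeR). Over the 12 genes of the list, 3 were induced and 5 repressed. The number repressed was 2 without hypoxia replicate 1 or 3.

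Regulators of mitophagy were among the clearest changes in the data. BNIP3, a receptor that hands mitochondria to autophagy, was at 40.6, 41.0 and 39.1 CPM in normoxia and 386, 396 and 374 CPM in hypoxia (3.26 ± 0.039), and its relative BNIP3L was at 84.9, 80.1 and 90.2 CPM in normoxia and 378, 388 and 378 CPM in hypoxia (2.17 ± 0.040). The mitochondrial protease LONP1 rose from 129.8, 137 and 125 to 165, 163 and 160.4 CPM (0.32 ± 0.038). PINK1, a kinase of the other mitophagy pathway, was 1.14-fold lower (-0.18), a call that was lost without hypoxia replicate 2 (-0.12, adjusted p = 0.0701, edgeR). NDUFA4L2 and COX4I2, known as HIF-dependent subunits in other cells, were below the count filter, with 6, 9 and 9 counts of NDUFA4L2 in normoxia and 0, 2 and 6 in hypoxia and 0 counts of COX4I2 in every sample. Over the 8 tested genes of mitochondrial adaptation 3 were induced and 1 repressed, the latter 2 without normoxia replicate 1, 0 without hypoxia replicate 2, 3 with upper-quartile and 4 with total-count scaling.

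Subunits of the respiratory chain fell in small steps and in large number. Of 77 nuclear-encoded subunits 51 were repressed (66.2%, against 24.2% of all tested genes), 3 were induced, none changed 2-fold, and the median log2 fold change was -0.16. The repressed members were spread over the complexes: 25 of 38 in complex I, 3 of 4 in complex II, 8 of 10 in complex III with cytochrome c, 7 of 10 in complex IV and 8 of 15 in ATP synthase. The largest decreases were those of NDUFS8, an iron-sulphur subunit of complex I, from 98.4, 97.6 and 98.9 to 74.0, 68.8 and 70.5 CPM (-0.47 ± 0.041), and of ATP5G1, a membrane ring subunit of ATP synthase, from 113, 123 and 112 to 85.5, 86.1 and 82.4 CPM (-0.46 ± 0.042). NDUFS7 and NDUFA3 changed by -0.41 and -0.40 (largest adjusted p of the 4 = 8.76e-05, edgeR). With an offset for length 31 were repressed and 6 induced (median -0.07), and with an offset for GC and length 44 and 4 (median -0.11). With total-count scaling 68 were repressed and 0 induced, and without hypoxia replicate 2 or 3 the number induced was 1.

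Mitochondrial ribosomal proteins, which translate the mitochondrial genome's own subunits, moved in the same way. Of 75 tested 48 were repressed (28 of 47 in the large and 20 of 28 in the small subunit) and 1, MRPS6, was induced, with a median of -0.17. MRPS6 was at 109, 107 and 126 CPM in normoxia and 160.5, 136 and 175 CPM in hypoxia (0.46 ± 0.065). MRPL34, MRPL52 and MRPL46 had the largest decreases, of -0.38, -0.36 and -0.36 (largest adjusted p = 0.000112, edgeR), and with the offset for GC and length 38 were repressed and 3 induced. The TCA cycle and glutamine list held 12 repressed and 4 induced genes of 21 (median -0.15). With an offset for length 9 were repressed and 4 induced (median -0.04), and with one for GC and length 10 and 5 (median -0.08). With total-count scaling 14 were repressed and 2 induced, and with all 18 samples in 1 fit 6 and 1. SUCLG1 and IDH3A, enzymes of the cycle, changed by -0.30 and -0.28, whereas IDH2, the NADP-dependent mitochondrial isocitrate dehydrogenase, rose from 153, 153 and 149 to 204, 202 and 200.4 CPM (0.41 ± 0.034).

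Most subunits in each part of the proteasome fell. Of 35 subunits tested none were induced and 28 were repressed (80.0%), with a median of -0.20: 12 of 15 in the 20S core, all 6 ATPases of the 19S cap and 10 of its 14 other subunits. PSMB2, a core subunit, was at 380.4, 384 and 374 CPM in normoxia and 303, 302 and 297 CPM in hypoxia (-0.34 ± 0.032). PSMB10, PSMA3 and PSMB4 changed by -0.41, -0.31 and -0.28 (largest adjusted p = 3.5e-06, edgeR). The highest value of any subunit was 0.03 on the log2 scale, and with the offset for GC and length 30 were repressed and 2 induced. When all 18 samples of the series shared 1 fit, with fewer genes called in all (1867 induced and 1419 repressed), 12 proteasome subunits, 18 subunits of the respiratory chain and 21 mitochondrial ribosomal proteins were repressed.

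Targets of NRF2, the factor that drives antioxidant defence, were also lower, with 12 of 15 repressed, none induced and a median of -0.18. HMOX1, which degrades haem, was at 55.8, 60.6 and 56.4 CPM in normoxia and 42.9, 46.2 and 45.6 CPM in hypoxia (-0.36 ± 0.049). OSGIN1 and SRXN1, which repairs oxidised peroxiredoxins, changed by -0.77 and -0.31 (largest adjusted p of the 3 = 6.8e-05, edgeR). With the offset for GC and length the counts were 12 repressed and 0 induced, and with all 18 samples in 1 fit 4 were repressed.

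Protein synthesis split by its parts. In ribosome biogenesis 15 of 31 genes were repressed and 5 induced, the latter 3 without hypoxia replicate 1 (median -0.09). The largest decrease was that of RRP9, a protein of the U3 snoRNP, which fell from 27.0, 30.9 and 28.1 to 18.2, 17.8 and 18.02 CPM (-0.67 ± 0.063). MYBBP1A, BOP1 and TCOF1 changed by -0.59, -0.51 and -0.47. Of 36 tRNA synthetases 14 were repressed and 6 induced, the latter 3 without normoxia replicate 1 or hypoxia replicate 2 or 3. MARS and the mitochondrial MARS2 changed by -0.34 and -0.47, whereas DARS, the cytosolic aspartate enzyme, rose from 139, 132 and 144 to 209, 216 and 199.7 CPM (0.59 ± 0.039) and the mitochondrial IARS2 changed by 0.35 (largest adjusted p of these 8 genes = 0.000204, edgeR). Of 79 cytosolic ribosomal proteins 20 were induced (25.3%, near the 25.9% of all tested genes) and 6 repressed (7.59%, against 24.2%). The median was 0.01, and none passed the test against 1.2-fold. Total-count scaling turned the counts to 4 and 36, and the offset for GC and length to 41 and 7. Without normoxia replicate 1 the number repressed was 16. RPS7, RPS15A and RPL9 were the highest (0.23, 0.23 and 0.20) and RPS26 the lowest called (-0.17; with a length offset -0.06, adjusted p = 0.172). Ribosomal protein genes have many pseudogene copies, and RPL21 had at most 3 counts in any sample.

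Iron genes passed the test in every tested member, 5 of 10 induced and 5 repressed. With total-count scaling, with an offset for GC, or without normoxia replicate 1 or 2 or hypoxia replicate 3, the number induced was 3. CP, the plasma ferroxidase ceruloplasmin, was at 24.9, 22.9 and 26.8 CPM in normoxia and 192, 185 and 192 CPM in hypoxia (2.93 ± 0.048), and TFRC, the transferrin receptor that imports iron, was at 402, 392.2 and 384 CPM in normoxia and 624, 649 and 680.5 CPM in hypoxia (0.73 ± 0.035). STEAP3, the reductase of imported iron, rose from 129.6, 130.2 and 124 to 179, 169 and 166 CPM (1.34-fold). The storage subunits of ferritin fell, FTH1 from 2075, 2065 and 2179 to 1525, 1560.0 and 1500.0 CPM (-0.46 ± 0.030) and FTL from 2187, 2229 and 2300.0 to 1643, 1713 and 1668 CPM (-0.42 ± 0.030; largest adjusted p of the 5 = 3.78e-09, edgeR), and both have pseudogenes.

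Glycogen genes were mostly higher, and 4 lipid genes rose. Of 12 glycogen genes 8 were induced and 2 repressed (median 0.27). GYS1, glycogen synthase, was at 46.4, 47.0 and 47.9 CPM in normoxia and 101, 102 and 91.9 CPM in hypoxia (1.06 ± 0.046), GBE1, the branching enzyme, rose 1.85-fold, and PPP1R3C and PPP1R3B, which bring a phosphatase to glycogen, rose 3.34-fold and 1.79-fold (largest adjusted p = 4.82e-14). PLIN2, the coat protein of lipid droplets and a marker of clear cell renal carcinoma, was at 126, 125 and 126 CPM in normoxia and 405, 400.3 and 403 CPM in hypoxia (1.68 ± 0.033), and HILPDA, an inhibitor of lipid droplet lipolysis, rose from 11.5, 11.4 and 12.3 to 23.99, 25.1 and 23.5 CPM (2.06-fold). SCD, the stearoyl-CoA desaturase, and ELOVL6, an elongase, rose 1.72-fold and 1.33-fold, and the fatty acid synthesis and storage list as a whole was near the background of all tested genes (25.9% and 24.2%), with 5 of 19 induced and 5 repressed. With an offset for GC 8 and with one for GC and length 9 were induced.

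Fatty acid oxidation held 8 repressed and 4 induced genes of 22 (median -0.12). PPARGC1A, the coactivator PGC-1α that drives mitochondrial biogenesis, was at 23.0, 22.6 and 23.5 CPM in normoxia and 15.3, 13.1 and 14.2 CPM in hypoxia (-0.70 ± 0.068), and CPT1A, the gate of fatty acids into mitochondria, was at 2.11, 1.79 and 1.44 CPM in normoxia and 0.961, 1.13 and 0.801 CPM in hypoxia (-0.88 ± 0.24). ACADS, the short-chain dehydrogenase, rose 1.27-fold, and ETFDH was at -0.32, a call lost without normoxia replicate 2 or 3 or hypoxia replicate 1 or 2 (-0.22, adjusted p = 0.172 in the last case, edgeR). In cholesterol synthesis 11 of 27 were repressed and 4 induced. Both brakes of SREBP processing were among the latter, INSIG2 from 21.2, 20.1 and 20.3 to 62.1, 64.3 and 60.3 CPM (1.60 ± 0.051) and INSIG1 from 134, 129 and 144 to 176, 164 and 181 CPM (0.36 ± 0.043), and DHCR7 and TM7SF2, late enzymes of the pathway, changed by -0.35 and -0.65 (largest adjusted p of the 4 = 9.26e-07).

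Several secreted vascular and growth factors rose by large amounts. Of 19 tested 10 were induced, 8 of them at least 2-fold, 2 were repressed and 7 were not called (median 0.78), while 9 further members, EPO, FLT1, KDR and ANGPT2 among them, were below the count filter. Besides the 4 factors above, VEGFA, the main angiogenic factor, was at 29.2, 27.7 and 29.4 CPM in normoxia and 53.3, 52.96 and 51.0 CPM in hypoxia (0.87 ± 0.050), and IGFBP3, a binding protein of insulin-like growth factors, was at 1119, 1135 and 1067 CPM in normoxia and 2821, 2805 and 2588 CPM in hypoxia (1.31 ± 0.035). PGF, a relative of VEGFA, went the other way (-1.66 ± 0.60, adjusted p = 0.0253) at 0.214, 0.275 and 0.371 CPM in normoxia and 0.0614, 0.0796 and 0.123 CPM in hypoxia. The number of repressed factors was 1 without normoxia replicate 2 or 3 or hypoxia replicate 1 or 2.

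Several enzymes that modify collagen rose, while several collagens did not pass the test. Over the matrix list 15 of 33 genes were induced and 5 repressed (median 0.17). LOX, which cross-links collagen and elastin, was at 41.2, 41.4 and 39.8 CPM in normoxia and 302, 304 and 283 CPM in hypoxia (2.86 ± 0.041), and LOXL2 changed by 1.21. P4HA1, the catalytic subunit of collagen prolyl hydroxylase, was at 81.9, 81.4 and 77.6 CPM in normoxia and 237, 253 and 248 CPM in hypoxia (1.62 ± 0.038), with P4HA2, P4HB and the lysyl hydroxylase PLOD2 at 0.71, 0.51 and 1.01 (largest adjusted p of these 6 = 1.36e-12, edgeR). The related enzymes LOXL3 and P4HA3 were below the count filter. With no filter on low counts they were at -0.40 and -0.94 and not called (adjusted p = 0.809 and 0.452, edgeR). Of the collagens COL12A1 changed by 0.89, and COL4A1, COL5A1 and COL6A1 were at 0.03, 0.03 and -0.02 and not called. COL6A3 had 4, 9 and 5 counts in normoxia and 18, 17 and 17 counts in hypoxia, and its call was lost in each fit that left out normoxia replicate 1 or 3 or hypoxia replicate 1 or 3 (1.23, adjusted p = 0.0972 without the first, edgeR).

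2-oxoglutarate demethylases, which need oxygen to remove methyl groups from histones and DNA, were mostly higher. Of 21 genes, 12 were induced and 1, PHF8, was repressed (median 0.29), the latter number 2 without hypoxia replicate 1. KDM3A was at 31.1, 31.3 and 31.6 CPM in normoxia and 88.8, 86.2 and 82.5 CPM in hypoxia (1.45 ± 0.046), KDM4B at 19.4, 22.4 and 22.2 CPM in normoxia and 38.4, 34.3 and 34.2 CPM in hypoxia (0.74 ± 0.065), and KDM4C and JHDM1D changed by 0.66 and 0.68 (largest adjusted p of the 4 = 3.84e-05, edgeR). TET2, which oxidises 5-methylcytosine, changed by 0.52, and TET3 was at -0.13 and not called. Many of these transcripts are long, and with the offset for GC and length 11 were induced and 3 repressed.

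Transcriptional repressors and mTORC1 brakes held a few strong members in lists that otherwise moved both ways. BHLHE40 and BHLHE41, repressors of the circadian clock, rose from 72.5, 80.2 and 71.9 to 201, 196 and 189.9 CPM (2.61-fold) and from 5.87, 5.12 and 4.85 to 11.99, 11.3 and 10.52 CPM (2.13-fold), and MXI1, an antagonist of MYC, rose from 30.5, 28.8 and 28.6 to 59.0, 59.4 and 55.0 CPM (1.98-fold), in a list with 5 induced and 6 repressed genes of 17. MYCL1 was at 0.61 with overlapping groups and lost its call without normoxia replicate 1 or hypoxia replicate 1 (0.43, adjusted p = 0.1, edgeR). DDIT4 (REDD1), an inhibitor of mTORC1, was at 29.3, 28.1 and 32.8 CPM in normoxia and 198, 192 and 203 CPM in hypoxia (2.72 ± 0.049). The arrestin ARRDC3 was at 33.3, 34.5 and 38.1 CPM in normoxia and 200, 217 and 205 CPM in hypoxia (2.56 ± 0.048). RRAGD, a GTPase of the mTORC1 pathway and not one of its brakes, rose 2.27-fold (largest adjusted p of DDIT4, ARRDC3, RRAGD, BHLHE40, BHLHE41 and MXI1 = 7.63e-09, edgeR). The list as a whole had 5 induced and 4 repressed of 16, near the background of all tested genes (25.9% and 24.2%).

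Inflammatory genes were mostly higher at low levels, with 14 of 19 induced, 3 repressed and a median of 0.39. CSF2, the growth factor GM-CSF, was at 0.526, 0.687 and 0.325 CPM in normoxia and 2.27, 2.21 and 2.30 CPM in hypoxia (2.12 ± 0.26), and the neutrophil chemokines CXCL1 and CXCL6 rose from 2.59, 2.77 and 2.30 to 7.89, 8.26 and 8.16 CPM (3.16-fold) and from 5.15, 4.85 and 4.62 to 12.4, 10.9 and 14.4 CPM (2.58-fold; largest adjusted p of the 3 = 5.42e-07, edgeR). IL6 and IL8 changed by 1.24 and 1.30. IL1B went against its list with 58, 46 and 56 counts in normoxia and 1, 2 and 3 counts in hypoxia, a ratio of normoxia over hypoxia of 28.7 (95% exact interval 12.9 to 79.5), and CCL2 changed by -1.09. PTGS2 and TNF had 0 counts in every sample, and leukocyte markers summed to at most 0.0697 CPM in any sample.

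Immediate early and ERK feedback genes held 9 induced and 4 repressed genes of 19 (median 0.28), and the number repressed was 2 without normoxia replicate 1 or 2 or hypoxia replicate 1 and with the offset for GC and length. DUSP1, a phosphatase of MAP kinases, was at 68.1, 73.5 and 72.2 CPM in normoxia and 220.1, 205 and 224 CPM in hypoxia (1.60 ± 0.042), SPRY1 rose from 1.85, 1.41 and 1.70 to 5.79, 4.95 and 5.05 CPM (3.18-fold), and IER3 and JUNB rose 1.77-fold and 1.53-fold (largest adjusted p of the 4 = 0.00126). Interferon and MHC class I genes were divided, 5 induced and 9 repressed of 22. IFITM1, an interferon-induced membrane protein, fell from 1.87, 1.98 and 2.65 to 0.941, 1.35 and 1.27 CPM (-0.86 ± 0.23), and OAS1, IRF1 and IFITM3 changed by -0.48, -0.34 and -0.41 (largest adjusted p of the 4 = 0.00289). HLA-B, which rose from 44.9, 39.4 and 48.4 to 68.4, 69.3 and 64.3 CPM, is uncertain, since HLA genes share sequence and 77 of the 118 protein-coding genes from HLA-F to RING1 on chromosome 6 had at most 10 counts over the 6 samples, 65.3% against 30.7% of all protein-coding genes. TAP1 and PSMB8, in that region, had 0 counts in every sample.

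At the other end, the 12 genes with the lowest fold changes included 3 solute carriers, SLC47A2, SLC6A13 and SLC2A2. KCNJ13, a potassium channel (chr2:233630512-233641275 in GRCh37), was at 3.16, 2.67 and 2.32 CPM in normoxia and 0.511, 0.438 and 0.123 CPM in hypoxia (-2.92 ± 0.31). SLC47A2, a renal exporter of organic cations, was at 3.802, 2.92 and 3.02 CPM in normoxia and 0.368, 0.219 and 0.945 CPM in hypoxia (-2.67 ± 0.30). SLC2A2, the glucose transporter GLUT2 of tubule, liver and islet cells (chr3:170714136-170744532 in GRCh37), was at 15.5, 13.2 and 15.1 CPM in normoxia and 3.35, 4.54 and 3.72 CPM in hypoxia (-1.91 ± 0.11, adjusted p = 9.51e-13). KCNJ13 and SLC47A2 were under 1 CPM in every hypoxic sample, and SLC2A2 was above 3 CPM in each.

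The rest of the 12 included SLC6A13, a GABA and taurine transporter, which fell from 2.36, 1.73 and 2.67 to 0.327, 0.657 and 0.493 CPM (4.53-fold lower), and CILP, an extracellular matrix protein, which fell from 7.06, 6.55 and 6.83 to 1.43, 1.21 and 0.699 CPM (6.09-fold lower). DHRS9, a dehydrogenase that acts on retinol, fell from 9.73, 10.1 and 10.8 to 2.50, 3.203 and 2.22 CPM (3.85-fold lower). DDC, which makes dopamine and is expressed in proximal tubule, was 3.23-fold lower, and CABP1, CCDC146 and GRAMD1B were 3.85-fold, 3.65-fold and 3.58-fold lower (largest adjusted p of these 7 = 4.73e-06, edgeR). ACSM2A, a medium-chain acyl-CoA synthetase, fell from 4.74, 5.18 and 5.27 to 0.920, 1.11 and 1.75 CPM, and has a near-identical copy next to it. C6orf48 was at 3.49, 0.844 and 0.720 CPM in normoxia and 0.286, 0.637 and 0.555 CPM in hypoxia (-1.78 ± 0.46); its call was lost without normoxia replicate 1 (-0.67, adjusted p = 0.197, edgeR), and it lies in the poorly counted region of chromosome 6.

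Transporters and surface proteins of the renal tubule were lower as a list, with 10 of 18 tested genes repressed, 5 induced (3 without normoxia replicate 1) and a median of -0.34, and a further 12 members, SLC22A6, SLC22A8 and UMOD among them at 0 counts, were below the count filter. CUBN, also below it, had 1, 2 and 0 counts in normoxia and 11, 9 and 6 counts in hypoxia. With no filter on low counts CUBN was called induced (2.95, adjusted p = 0.0142, edgeR), and none of the others below the filter was called. Besides SLC2A2, SLC34A2, a sodium phosphate cotransporter, fell from 391, 394 and 386 to 215, 197 and 200.4 CPM (-0.94 ± 0.036), AQP1, a water channel of proximal tubule, changed by -0.60, and CDH16, the kidney cadherin, by -0.57 (largest adjusted p of the 3 = 0.0027). ANPEP, an aminopeptidase of the brush border, had 28, 30 and 14 counts in normoxia and 3, 1 and 9 counts in hypoxia, a ratio of normoxia over hypoxia of 5.97 (95% exact interval 3.28 to 11.7). SLC34A1 was at -1.21 and lost its call without normoxia replicate 2 (-1.03, adjusted p = 0.0759) or hypoxia replicate 3 (-0.83, adjusted p = 0.0718, edgeR). MME, also of the brush border, rose from 1.48, 1.47 and 1.76 to 3.87, 3.66 and 3.97 CPM (1.29 ± 0.16), as did ATP1B1, a subunit of the sodium pump (0.63), and LRP2 (megalin) was at -0.01 and not called.

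Among transcription factors of kidney development and identity 4 were induced and 4 repressed of 13, the latter 2 without normoxia replicate 2 or hypoxia replicate 2. Both shares were near those of all tested genes (25.9% and 24.2%). MAF was at 24.7, 23.6 and 23.4 CPM in normoxia and 8.92, 8.48 and 9.99 CPM in hypoxia (-1.39 ± 0.073, adjusted p = 2.14e-13) and POU3F3 rose from 1.25, 1.41 and 1.70 to 2.78, 2.67 and 3.58 CPM (1.06 ± 0.19), while PAX8 was at -0.14 and not called (edgeR). TFCP2L1, with 17, 20 and 28 counts in normoxia and 2, 10 and 14 counts in hypoxia, and ESRRG (-0.60) were called, but TFCP2L1 lost its call without normoxia replicate 2 or 3 or hypoxia replicate 1 or 2 (-0.89, adjusted p = 0.174 without hypoxia replicate 1), and ESRRG without normoxia replicate 2 or hypoxia replicate 1 or 2 (-0.36, adjusted p = 0.287 in the first case, edgeR). HNF4A had at most 5 counts in any sample.

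Epithelial and mesenchymal markers did not divide by type. Of 18 genes 11 were induced and 4 repressed. VIM, the mesenchymal intermediate filament, was at 1807, 1852 and 1785 CPM in normoxia and 2807, 2799 and 2666 CPM in hypoxia (0.60 ± 0.030), and DSP, desmoplakin of epithelial junctions, was at 182, 185 and 177 CPM in normoxia and 303, 272 and 268 CPM in hypoxia (0.63 ± 0.041). ESRP2, an epithelial splicing factor, changed by 1.06, the mesenchymal factors ZEB1 and ZEB2 by 0.31 and 0.42, and SNAI1 and SNAI2 by -0.87 and -0.30 (largest adjusted p of these 7 = 0.0076, edgeR). The keratins KRT8 and KRT18 changed by -0.22 and -0.53 and KRT7 and KRT19 by 0.28 and 0.32.

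The cell cycle lists leaned in different directions. DNA replication held 16 repressed and 5 induced genes of 38 (median -0.08), the induced number being 3 without normoxia replicate 3, with E2F1, the S-phase transcription factor, at 60.3, 62.2 and 54.1 CPM in normoxia and 41.8, 42.5 and 45.0 CPM in hypoxia (-0.45 ± 0.053) and CCNE1, the cyclin that partners CDK2 at S-phase entry, at -0.37. RFC1 and POLE, both large replication proteins, rose 1.496-fold and 1.24-fold. Mitosis held 15 induced and 6 repressed genes of 30 (median 0.14): ANLN, which organises the cleavage furrow, was at 295, 283 and 266 CPM in normoxia and 486, 499 and 481 CPM in hypoxia (0.80 ± 0.036), TOP2A rose 1.42-fold and CENPF 1.39-fold, while CDC20, an activator of the anaphase complex, fell from 236, 250.1 and 226 to 188, 194 and 184 CPM (-0.33 ± 0.038). CCNB1, PLK1 and UBE2C changed by -0.14, -0.20 and -0.15 (largest adjusted p of these 11 = 0.00145, edgeR).

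DNA repair was near the background of all tested genes (25.9% and 24.2%), with 10 induced and 11 repressed of 42. The counts were 5 and 17 with total-count scaling and 5 and 14 with the offset for GC and length. BRCA2, of homologous recombination, was at 8.07, 8.60 and 8.01 CPM in normoxia and 17.6, 16.2 and 18.1 CPM in hypoxia (1.07 ± 0.079), the kinase ATM rose 1.53-fold and the mismatch repair gene MSH3 1.27-fold, all 3 with long transcripts, and LIG3 changed by -0.32 (largest adjusted p of the 4 = 0.000423, edgeR). In p53 targets 6 were induced and 5 repressed of 19: CDKN1A (p21) fell from 169.9, 172 and 171 to 128, 124 and 130.5 CPM (-0.42 ± 0.035) and GDF15 fell from 118, 118 and 126 to 88.2, 79.6 and 86.7 CPM (-0.51 ± 0.043), while DDB2 and GADD45A rose 1.41-fold and 1.32-fold (largest adjusted p of the 4 = 6.25e-05, edgeR). The p53 list was near the background of all tested genes in both directions. Of 33 splicing regulators 12 were repressed and 5 induced, with the largest increase that of SRSF12 (1.30-fold). SRSF11 changed by 0.27, CLK3 by 0.28 (with a length offset 0.11, adjusted p = 0.225, edgeR) and CLK2 by -0.30, a call lost without normoxia replicate 2 (-0.25, adjusted p = 0.0678) or hypoxia replicate 3 (-0.25, adjusted p = 0.0546, edgeR).

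Stress programmes of the endoplasmic reticulum and of amino acid shortage were mixed. In the integrated stress response 8 of 19 were repressed and 4 induced, with ATF4 and DDIT3 (CHOP) at -0.03 and -0.05 and not called. TRIB3, a pseudokinase, was at 114, 123 and 129.9 CPM in normoxia and 334, 345 and 326 CPM in hypoxia (1.45 ± 0.041), and SLC7A5, an amino acid transporter, rose from 881, 945 and 838 to 1426, 1462 and 1327 CPM (1.58-fold), while CEBPB and CTH changed by -0.76 and -0.64 (largest adjusted p of the 4 = 1.27e-05, edgeR). The unfolded protein response list held 11 induced and 8 repressed of 23. ERO1L, the oxidase that makes disulphide bonds and a known hypoxia target, was at 63.9, 62.8 and 66.1 CPM in normoxia and 140.1, 142 and 137 CPM in hypoxia (1.12 ± 0.039), EDEM1 rose 1.39-fold, and the chaperone partners SDF2L1 and DNAJB11 changed by -0.69 and -0.43.

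Total-count scaling, which shifts all genes down, raised the repressed counts of several mixed lists: to 24 for tRNA synthetases, 26 for DNA replication, 14 for fatty acid oxidation, 20 for splicing regulators and 6 for acid and bicarbonate handling.

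By share of all counts, both the large and the many small changes moved reads. The sets of genes were called in these same 6 samples, which largely fixes the direction in which the share of each called set moved. The 3318 induced genes held 34.1% ± 0.23 (SD, n = 3) of counts in normoxia and 41.7% ± 0.21 in hypoxia, and the 3105 repressed genes 29.0% ± 0.15 and 23.5% ± 0.11. The 265 genes induced at least 2-fold went from 1.05% to 2.99%, and the 130 genes repressed at least 2-fold from 0.128% to 0.0508%. The 1665 genes repressed by less than 1.2-fold went from 20.9% to 17.7%, and the 1339 induced by less than 1.2-fold from 19.1% to 20.2%. The 6388 genes not called also went down, from 36.9% to 34.8%. These shares are of total counts, without the TMM factors used for the calls. The sizes of the small gains and losses therefore cannot be compared with each other. The largest gains in CPM were those of LDHA (6195), GAPDH (2867), PGK1 (1987), IGFBP3 (1631) and ENO1 (1480.0), and the largest losses those of HSPA8 (-635.8), a constitutive chaperone, FTH1 (-577.6), ACTB (-574) and FTL (-564). CPM of different genes are not per length, so these are shares of reads and not amounts of transcript. CAV1, the coat protein of caveolae, and AHNAK, a very large scaffold protein, gained 1363 and 1214 CPM. GPR56, an adhesion receptor, lost 352.1 CPM and fell from 603, 619 and 578 to 259, 236 and 249 CPM (-1.28 ± 0.037, adjusted p = 2.72e-18, edgeR).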

How the data were processed

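RNA from RCC4 cells with VHL (3 normoxic and 3 hypoxic samples) had been made into polyA+ libraries with a ScriptSeq kit and sequenced. Per the study's methods and the submitters' processing notes, the authors trimmed reads with Trim Galore 0.3.3, aligned them to GRCh37 with TopHat 2.0.8b and Bowtie 1.0.0, removed fragments without a unique place with SAMtools 0.1.19 and deposited whole-number counts per UCSC gene from HTSeq 0.5.4p3 in its strict intersection mode. Whether strand was used in counting is not given in the sources used here, so overlapping and antisense genes cannot be separated. The deposited counts were used unchanged, with 42045335 to 51794355 per sample. Intervals and floors cover counting error only.

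Genes with too few reads were removed (filterByExpr), and hypoxia was tested against normoxia over the 6 samples with edgeR 4.0.16 in R 4.3.3 (TMM factors, quasi-likelihood F-test, Benjamini-Hochberg adjusted p below 0.05 over 12811 genes), and against a minimum change of 1.2-fold with glmTreat. Adjusted p-values printed are from these fits unless the sentence names another fit. Induced and repressed mean past that threshold; CPM are counts scaled to TMM-adjusted library size. SE were derived from the log2 fold change and its F statistic. Scripts were tested on simulated data. Gene spans are GRCh37, promoter sequences RefSeq on GRCh38.p14. GC and length were known for 96.8% of tested genes.

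The comparison and the 36 gene lists were chosen with earlier results of these data known. The text names 12 called genes at each end of the range of fold changes (mean of at least 1 CPM, groups not overlapping), up to 4 called genes with the largest changes of each list, the 5 genes in each direction with the smallest p among changes under 1.2-fold, and HIF subunits, VHL, EGLN1, EGLN3, CA9 and CA12. Other genes named were chosen after their values were seen. The alternatives were DESeq2 1.42.0, other scalings, filters and fits, and leaving out each sample, and offsets for length and for GC with length were added after seeing the data. The other 12 samples entered only the fit over all 18. Some genes that the rule names are not reported here.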

Additional observations from a re-analysis of the deposited data

How the results depend on the processing

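The counts of induced (3318) and repressed genes (3105) stayed within 1.5 times under every alternative except the fit over all 18 samples, which gave 1867 and 1419, with 689 and 250 beyond 1.2-fold in place of 1160 and 562. Beyond 1.2-fold, total-count scaling gave 1060 repressed genes. A minimum of 1.5-fold in place of 1.2-fold left 315 induced and 90 repressed genes, fewer by construction. Requiring 10 counts in every sample gave 78 repressed changes of at least 2-fold in place of 130, with fewer genes tested. Leaving out 1 sample at a time gave 2900 to 3099 induced and 2694 to 2894 repressed genes, with 256 to 269 and 121 to 134 of at least 2-fold and 1029 to 1128 and 468 to 550 beyond 1.2-fold. DESeq2 gave 3183 and 3023, and the offset for GC 3198 and 3138. Of 172 genes named by rule that were tested, 170 were called, 131 were tested under every alternative and kept call and direction in each, a further 9 kept both wherever they were tested, none of the called genes reversed, and 30 lost the call under at least 1, of which 11 did so outside the fit over all 18 samples. C6orf48, among the 12 lowest genes, lost its call (-0.67 without normoxia replicate 1, adjusted p = 0.197, and adjusted p = 0.0543 with DESeq2). VHL, at 0.0023 (adjusted p = 0.972, edgeR) and not called in any fit, changed sign: -0.0004 with DESeq2 and with median-of-ratios factors, -0.0806 with total-count scaling, -0.0343 with upper-quartile factors, -0.0037 over all 18 samples, -0.0188 with the GC offset, -0.0191 with the block and GC offset, -0.0009 and -0.0245 with offsets for length and for GC with length, and between -0.0233 and 0.0357 where 1 sample was left out, below 0 without normoxia replicate 1 or 2 or hypoxia replicate 1 or 2 (at most -0.0048). Where 1 sample was left out, ARNT ranged from -0.0455 without normoxia replicate 2 to 0.0188 without normoxia replicate 3. The cause was not tested. Genes with as few counts as CA9 were tested only in the fit without a filter on low counts.

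The replicate numbers were not treated as pairs: samples with the same number did not deviate together (mean r = 0.0166), and with a replicate block 3351 genes rose and 3143 fell, 262 and 129 of them at least 2-fold, no count in a list moved by over 1.5 times, and no named gene changed its call.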
